A study of Homo sapiens with 36 samples.

Results

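The genes described here were 10 targets of the transcription factor NRF2, namely NQO1, AKR1B10, AKR1C1, AKR1C2, AKR1C3, TXNRD1, GCLM, GCLC, SLC7A11 and SRXN1, of 20033 protein-coding genes in the annotation. They were listed by name as known NRF2 targets with earlier results of these data known, and the rule for their peaks used no measured value. They were examined by ChIP-seq, the sequencing of DNA that is pulled down with an antibody to a protein or mark, in a pair of human lines. A549 derives from a lung adenocarcinoma, while BEAS-2B (B2B) is a line of bronchial epithelial cells that is not cancerous. The labels give 36 samples in 18 groups of 2 replicates, no treatment, and 4 of the samples were input chromatin. The replicates were merged before peaks were called, so each of the 16 peak lists is 1 pool with no replicate error, no test could be made, and a difference between lists is a difference between 2 pools of cells. Each line is a single cell line, so that what belongs to cancer and what belongs to the line cannot be told apart. A549 is known to carry a mutation of KEAP1, and the genotype was not measured in the lists. A member was scored at its promoter, by any peak no more than 3 kb from a start site of the gene, and by its surroundings, where peaks of the Jun-family proteins within 100 kb were merged into 129 regions of 72011 in all.

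NRF2, encoded by NFE2L2, is a transcription factor that pairs with a small MAF protein and binds the antioxidant response element (ARE) near genes for the defence against oxidants and electrophiles. The adaptor KEAP1 normally holds NRF2 in the cytoplasm for ubiquitination and breakdown, and loss of KEAP1 lets NRF2 accumulate, as happens in many lung adenocarcinomas. The core of an ARE resembles the site of AP-1, the dimer of Jun and Fos proteins, and the letters TGACTCAGC hold both. NRF2 itself was not a target of any list, so that only JunB, Jun and JunD, the Jun-family subunits of AP-1, were measured at these sites. The other targets were RNA polymerase II (pol II), which transcribes the genes, the promoter mark H3K4me3, the mark of active promoters and enhancers H3K27ac, and the Mediator subunit Med1. The insulator protein CTCF and the cohesin subunit Rad21 were analysed in B2B alone.

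For each peak, the whole number of reads at the summit and the local background of the peak caller were solved from the deposited fold enrichment and −log10 p. The lowest background of a list is called its baseline. Between lines the baselines of a target had ratios, A549 over B2B, from 0.855 for Jun to 1.05 for JunB. Reads at a summit are set side by side on this scale, but they include the local background and so do not measure binding alone. The background differed far more. In B2B, the median background at a summit was 5.56 times the baseline for pol II, 7.98 times for H3K27ac and 11.2 times for H3K4me3, against 1.43, 1.81 and 1.36 times in A549. At B2B summits shared by 2 lists, the backgrounds of pol II, H3K4me3, CTCF, Rad21 and the Jun family had a median ratio to that of H3K27ac between 0.855 and 1.02, and that of Med1 was 0.125. For the Jun family these medians rest on few summits, 87 for Jun, 44 for JunB and 11 for JunD, and over their whole lists the median background in B2B was 1.15, 1.15 and 1.47 times the baseline. Where the H3K27ac background exceeded 10 times its baseline, 12, 2 and 1 of these summits were left, with median ratios of 0.827, 0.902 and 0.698. At B2B promoters of some members the background was high, and fold enrichment there was divided by that high value. The lists of H3K27ac in A549, Med1 in both lines and pol II in A549 ended early, and NQO1 on chromosome 16 and SRXN1 on chromosome 20 were not scored where they lie past an end. Of the markers checked against the labels, the epithelial genes KRT8, KRT18, EPCAM and CDH1 had promoter H3K4me3 in both lines. H3K4me3 was called at 3 of 4 alveolar type II genes in each line, with none at SFTPB, and at 2 of 4 basal airway genes in A549 and 1 of 4 in B2B, with none at KRT5 and KRT14. Of other cell types, H3K4me3 was called at 2 of 4 fibroblast genes in A549 and 3 of 4 in B2B, and of the blood genes at PTPRC in A549 and at none in B2B. CDKN2A, which is known to be deleted in A549, had no peak there and had one in B2B.

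Sequences are shown first for the regions where an ARE core, TGACNNNGC on either strand, lay within 50 bp of a Jun-family summit, since these are the sites where NRF2 and AP-1 binding could meet. Such a core was found in 21 of the 129 regions, and in 6 of them it read TGACTCAGC, so that it also held the AP-1 motif TGACTCA. The 10 regions with the highest summed fold enrichment of the 3 Jun-family proteins in either line are printed, with the core in capitals, 5′ to 3′ on the strand of the core, in hg38. Shared means that the merged region held a peak of each line, not that the core lay at a summit of each. At the NFYB and AKR1C3 sites the core lay within 50 bp of a B2B summit alone. At the shared SLC7A11 site and the TXNRD1 exon it lay within 50 bp of an A549 summit alone.
GCLC, intron between its start sites, chr6:53548223-53548283, plus strand, shared by both lines: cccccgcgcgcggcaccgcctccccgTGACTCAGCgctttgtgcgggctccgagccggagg
AKR1B10, between genes, chr7:134471022-134471082, plus strand, A549 alone: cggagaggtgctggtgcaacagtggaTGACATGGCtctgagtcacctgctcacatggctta
AKR1C2, intron, chr10:5009383-5009443, plus strand, A549 alone: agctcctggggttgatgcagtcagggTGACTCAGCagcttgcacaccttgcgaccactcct
SLC7A11, intron, chr4:138199685-138199745, minus strand, A549 alone: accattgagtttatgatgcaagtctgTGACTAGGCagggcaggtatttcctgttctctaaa
SLC7A11, intron, chr4:138235670-138235730, plus strand, shared: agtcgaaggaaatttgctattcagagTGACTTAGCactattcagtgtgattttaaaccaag
TXNRD1 surroundings, intron of NFYB, chr12:104121111-104121171, minus strand, shared: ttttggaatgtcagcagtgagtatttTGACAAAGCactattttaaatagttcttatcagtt
TXNRD1, exon at an inner start site, untranslated part, chr12:104286920-104286948, minus strand, shared: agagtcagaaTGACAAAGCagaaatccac
TXNRD1, intron, chr12:104281016-104281076, minus strand, shared: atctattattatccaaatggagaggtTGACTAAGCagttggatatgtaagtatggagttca
GCLC surroundings, between genes, chr6:53437688-53437748, plus strand, shared: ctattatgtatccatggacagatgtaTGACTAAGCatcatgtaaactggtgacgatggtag
AKR1C3, intron, chr10:5071882-5071942, minus strand, shared: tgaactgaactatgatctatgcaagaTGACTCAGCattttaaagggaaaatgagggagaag
A further sequence, chosen after its values were seen, came from a region 6.18 kb from an AKR1C1 start, between genes, called in A549 alone.
AKR1C1, chr10:4957046-4957106, minus strand: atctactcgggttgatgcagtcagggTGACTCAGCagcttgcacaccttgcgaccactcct
It equalled the AKR1C2 sequence above in 58 of 61 bases, and both hold TGACTCAGC. The first sequence, at GCLC, had its core 1 bp from the Jun summit in A549 and 47 bp from a GCLC start site. From the canonical start of the gene the summit lay at -3151 bp, that is, upstream.

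To ask whether the promoters of the members were marked differently in the lines, peaks within 3 kb of a start site were counted. In A549, each scored member had a peak of pol II (9 of 9), H3K4me3 (10 of 10), H3K27ac (8 of 8), Med1 (8 of 8), JunB (10 of 10) and Jun (10 of 10), and 7 of 10 had JunD. In B2B the counts were 5 of 9 for pol II, 7 of 10 for H3K4me3, 4 of 8 for H3K27ac, 4 of 8 for Med1, and for the Jun family 1 of 10 (JunB), 6 of 10 (Jun) and 0 of 10 (JunD). Among all protein-coding genes scored for the same lists, the A549 shares were 69.6% for pol II, 73.7% for H3K4me3, 73.5% for H3K27ac, 54.7% for Med1, with 31.1%, 38.2% and 17.8% for JunB, Jun and JunD. The B2B shares were 51.9%, 62.7%, 64.3%, 61.1%, 5.28%, 25.4% and 3.21% in the same order. Members stood above the share of all genes for each target in A549, and in B2B they lay above it for some targets and below it for others. CTCF had a peak at 7 of 10 members in B2B and Rad21 at 6 of 10, where 50.1% and 67.9% of all genes had one.

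**Figure D1:**
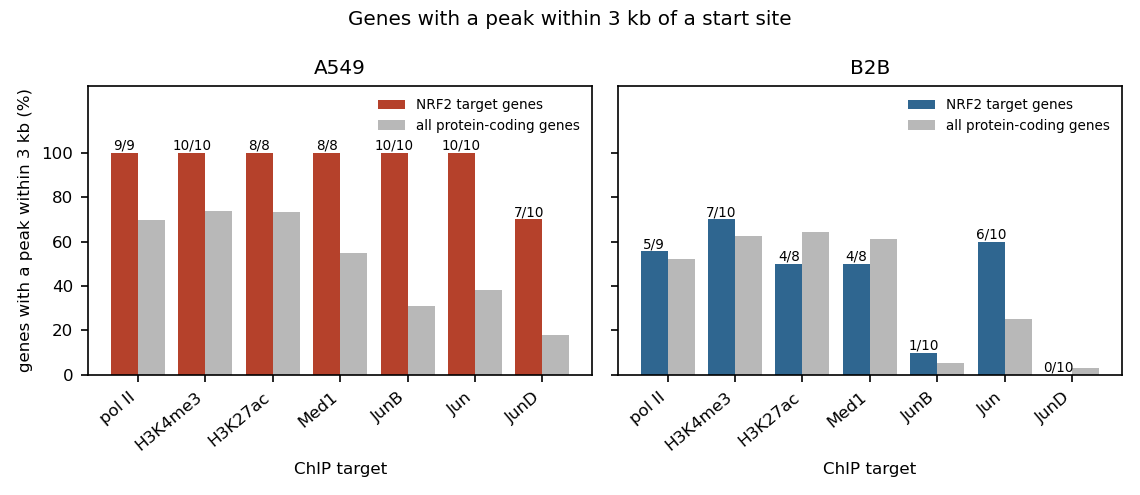
Share of genes with a peak within 3 kb of a start site, in percent on the vertical axis, for each ChIP target, in A549 (left) and B2B (right). Coloured bars are the NRF2 target genes, with their count over the number scored, and grey bars are all protein-coding genes scored. The coloured bars stand at 100% for 6 targets in A549 and between 0% and 70% in B2B.

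A peak in A549 and none in B2B was found at 4 of 9 members for pol II, where 19.5% of all genes had this pattern, and at 3 of 10 for H3K4me3 (12.9%). It was found at 4 of 8 for H3K27ac (11.2%) and at 4 of 8 for Med1 (3.86%). The Med1 lists were of nearly equal length, 20026 peaks in A549 and 20605 in B2B, and their B2B background was low at promoters. The members without Med1 in B2B were AKR1B10, AKR1C1, AKR1C2 and AKR1C3. JunB had the pattern at 9 of 10 members (26.7%), Jun at 4 of 10 (19.3%) and JunD at 7 of 10 (16.2%). The JunB list of A549 was 3.28 times as long as that of B2B, and in JunB lists of equal length 5 of 10 members had the pattern, beside 6.37% of all genes, without NQO1, AKR1C1, AKR1C2 and AKR1C3. When start sites were limited to the canonical one, Jun had the pattern at 8 of 10 members, with AKR1C2, AKR1C3, TXNRD1 and GCLC added, beside 20.4% of all genes. A peak of all 3 Jun-family proteins in A549 was found at 7 members, and at 13.7% of all genes. Of these 7, NQO1, AKR1B10 and GCLM lacked a peak of the Jun family at the promoter in B2B, a pattern shown by 5.79% of all genes. With lists of equal length, chosen after seeing the data, AKR1B10 and GCLM kept it, beside 1.41% of all genes, and at a −log10 q of at least 5 GCLM alone did, beside 4.35%.

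**Figure D2:**
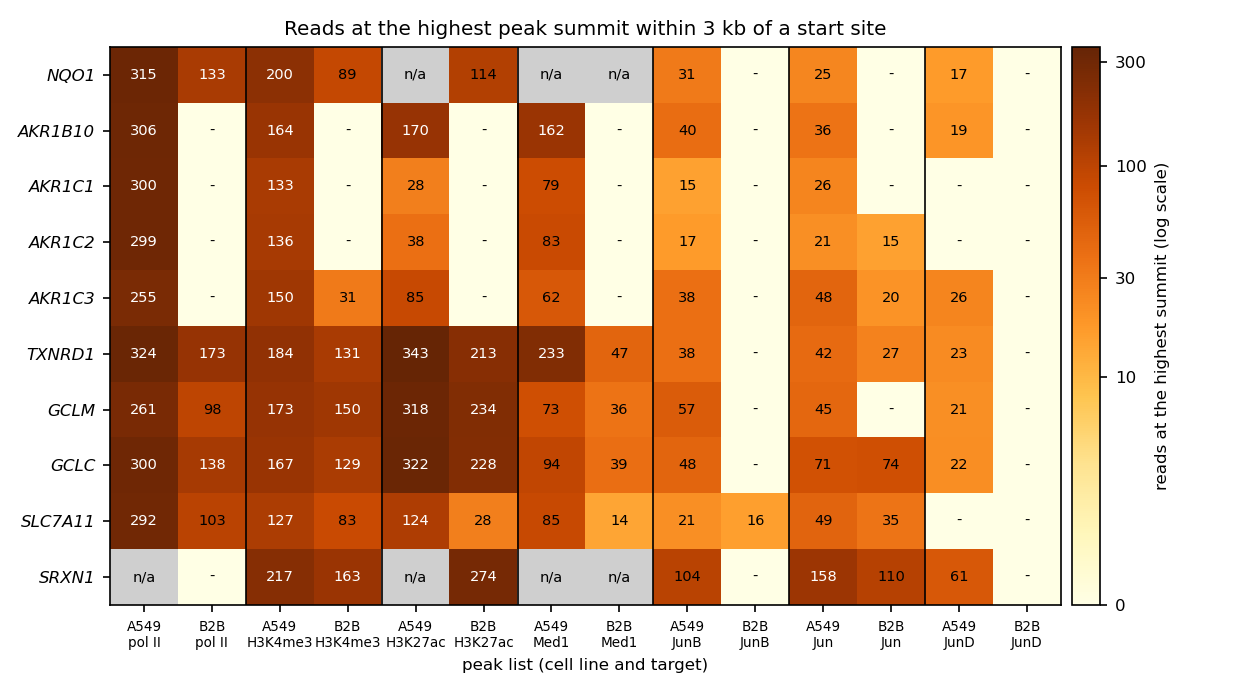
Reads at the highest summit within 3 kb of any start site, for each gene (rows) and each list (columns, A549 and B2B side by side for each target). The colour is on a log scale, a dash is no peak, and n/a marks genes past the end of a shortened list. The rows of AKR1B10, AKR1C1 and AKR1C2 hold dashes for pol II, H3K4me3, H3K27ac and Med1 in B2B, and values from 28 to 306 in A549.

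NQO1, at chr16:69706996-69726668 on the minus strand, encodes a quinone reductase that uses NAD(P)H to reduce quinones by a pair of electrons. Its promoter had 315 pol II reads at the highest summit in A549 and 133 in B2B, and 200 and 89 H3K4me3 reads. The pol II peak was 8173 bp wide in A549 and 976 bp in B2B. JunB had 31 reads, Jun 25 and JunD 17 at the promoter in A549, and none of them had a peak in B2B. The Jun and JunD peaks were among the weaker ones of their lists, at percentiles 9.72 and 11.3 of fold enrichment.

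The aldo-keto reductases reduce aldehydes and ketones, and AKR1B10 and the AKR1C enzymes also act on retinal and on steroids. AKR1B10, at chr7:134527567-134541412 on the plus strand, had 306 pol II reads, 164 H3K4me3 reads, 170 H3K27ac reads and 162 Med1 reads at its promoter in A549. None of the 9 B2B lists had a peak there. Its Med1 peak stood at percentile 99.7 of the A549 Med1 list, and its pol II peak covered 17711 bp, more than the gene. JunB had 40 reads, Jun 36 and JunD 19, with summits from 46 to 142 bp upstream of the canonical start.

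AKR1C1, AKR1C2 and AKR1C3 lie side by side on chromosome 10, at chr10:4963253-4983283 (plus), chr10:4987775-5018031 (minus) and chr10:5035354-5107686 (plus). In A549 they had 300, 299 and 255 pol II reads at the highest summit, 133, 136 and 150 H3K4me3 reads, and 79, 83 and 62 Med1 reads. In B2B none of the 3 had a pol II, H3K27ac or Med1 peak. AKR1C3 had 1 H3K4me3 peak in B2B, of 31 reads at the baseline background. H3K27ac in A549 had 28 reads at AKR1C1, 38 at AKR1C2 and 85 at AKR1C3. The AKR1C2 peak lay 2989 bp from the nearest of its start sites and was not counted within 1 kb of a start or with canonical starts, where 7 members had H3K27ac in A549. The 85 reads of AKR1C3 lay 8159 bp from its canonical start. The highest Jun summits had 26, 21 and 48 reads in A549, and in B2B none was called at AKR1C1. The highest B2B Jun summits at AKR1C2 and AKR1C3, of 15 and 20 reads, lay 15167 and 14919 bp from those of A549, at other start sites of the genes. At the A549 site of AKR1C2 no B2B Jun peak was called, and at that of AKR1C3 B2B had 11 reads against 48. At the B2B site of AKR1C3 A549 had 18 reads against 20, and at that of AKR1C2 it had no peak. JunB had 15, 17 and 38 reads in A549 and no peak in B2B, and JunD was called at AKR1C3 alone, with 26 reads. Reads of near-identical copies may have been placed on either gene. Of the 31-base words in the promoter peaks, 44.6% at AKR1C1 and 42.5% at AKR1C2 occurred more than once in the genome, against 8.97% at AKR1C3, 24.9% at AKR1B10 and 0.157% at GCLM.

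TXNRD1, at chr12:104215779-104350307 on the plus strand, encodes the cytosolic thioredoxin reductase, and SRXN1, at chr20:646615-653200 on the minus strand, encodes sulfiredoxin, which restores overoxidised peroxiredoxins. TXNRD1 had 324 pol II reads in A549 and 173 in B2B, at start sites 71256 bp apart, with 121 B2B reads at the site of the 324 and 319 A549 reads at the site of the 173. It had 343 and 213 H3K27ac reads, and 233 and 47 Med1 reads. Its Med1 peak stood at percentile 99.98 of the A549 list and at 95.97 of the B2B list. SRXN1 had the most Jun-family reads of the members in A549, with 104 for JunB, 158 for Jun and 61 for JunD. In B2B it had 110 Jun reads and no JunB or JunD peak. The fold enrichments of Jun at SRXN1, 43.4 in A549 and 2.78 in B2B, differed far more than the reads, since the background there was 2.68 times the baseline in A549 and 33.4 times in B2B.

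GCLC, at chr6:53497341-53616970, and GCLM, at chr1:93885199-93909456, both on the minus strand, encode the catalytic and modifier subunits of glutamate-cysteine ligase, which makes the first bond of glutathione. SLC7A11, at chr4:138164097-138242349 on the minus strand, encodes the cystine transporter that supplies the cysteine. Pol II reads were 300 and 138 in A549 and B2B at GCLC, 261 and 98 at GCLM, and 292 and 103 at SLC7A11. Med1 reads were 94 and 39 at GCLC, 73 and 36 at GCLM, and 85 and 14 at SLC7A11. At SLC7A11 the B2B background of the strongest pol II, Med1 and JunB peaks was at the baseline, and reads of each were again higher in A549. H3K27ac had 124 reads there against 28 in B2B, and H3K4me3 had 127 against 83. The B2B background of these marks was 2.23 and 1.41 times the baseline. Jun at SLC7A11 had 49 reads in A549 and 35 in B2B, and JunB had 21 and 16, so that SLC7A11 was the 1 member with a JunB peak in both lines. For pol II, H3K4me3, H3K27ac and Med1, the highest peaks of both lines overlapped at every member with a peak in each, except for pol II at TXNRD1. At the region of GCLC whose sequence is given first above, Jun had 59 reads in A549 and 74 in B2B, with fold enrichments of 21.1 and 2.70. The local background of these peaks was 1.84 reads in A549 and 26.8 reads in B2B. The higher B2B reads therefore do not show more Jun binding there.

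The high B2B background bore on which Jun-family peaks could be called there at all. Where a B2B peak of a list other than Med1 lay within 200 bp of an A549 Jun-family summit, its background was taken and the reads that a B2B peak would have needed at the lowest −log10 p of that list were computed. For JunB this could be done at 8 members. At GCLM a B2B JunB peak needed 79 reads, at GCLC 73, at SRXN1 117 and at NQO1 36, while A549 had 57, 48, 104 and 31. At these 4 promoters the JunB reads seen in A549 would not have been called in B2B, and the absence of a B2B peak does not show that fewer reads were there. At AKR1C2, AKR1C3, TXNRD1 and SLC7A11 the A549 reads of 17, 38, 38 and 21 would have been called, since 10, 10, 17 and 10 were needed. SLC7A11 did have a B2B JunB peak. For each member and protein, only the A549 peak with the highest fold enrichment was judged. At TXNRD1 that JunB peak lay at an inner start site, and a JunB peak of 23 reads at the canonical start was not judged. The JunD peak of TXNRD1 was judged at the canonical start, where 66 reads were needed and A549 had 23. For JunD the A549 reads would have been called at 1 of 6 members with a value, AKR1C3, and for Jun at 5 of 6, all but GCLM. At AKR1C3, TXNRD1, SLC7A11 and SRXN1, however, B2B did have a Jun promoter peak, so that for Jun only NQO1 and GCLM were informative. NQO1 had 25 A549 Jun reads where 24 were needed, and GCLM had 45 where 51 were needed. Both margins are small and rest on backgrounds taken from other lists. At AKR1B10 and AKR1C1 no B2B peak lay close enough to give the background.

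The same pattern was also looked for at promoters active in both lines. Among the 7 members with an H3K4me3 peak in both lines, all but AKR1B10, AKR1C1 and AKR1C2, a peak in A549 and none in B2B was found at 6 members for JunB, at 2 for Jun and again at 6 for JunD. Among 12186 genes with H3K4me3 in both lines, the shares were 38.2%, 26.8% and 24.3%.

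The strength of the peaks was described by the percentile of their fold enrichment in their own list, which in B2B was divided by the high background at some members. Only members with a peak entered a median, so that the sets differ between lines. In A549 and B2B these were 9 and 5 members for pol II, and 8 and 4 for both Med1 and H3K27ac. For H3K4me3 they were 10 and 7, and for Jun 10 and 6. The median percentile of the strongest pol II peak of the members was 97.6 in A549, against 86.8 for all genes with a peak, and 42.5 in B2B, against 49.2. For Med1 it was 98.5 in A549, against 71.6, and 91.9 in B2B, against 73.6. For H3K4me3 the members had 74.1 in A549, below the 79.3 of all genes, and 72.8 in B2B, against 58.8. H3K27ac stood at 75.9 in A549, below the 83.9 of all genes, and at 70.2 in B2B, against 70.7. In A549 JunB stood at 60.9, against 45.1, Jun at 71.7, against 50.6, and JunD at 45.3, against 47.2. In B2B Jun stood at 47.3, against 48.2. The H3K4me3 percentiles of the members in A549 ran from 57.4 to 96.8, with GCLM, GCLC and NQO1 highest, while those of Med1 ran from 87.2 to 99.98.

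To see how far pol II extended beyond the promoter, the share of each gene body covered by pol II peaks was computed. It was larger in A549 at 9 of 9 scored members, and at 64.1% of all genes. AKR1B10 was covered over 100% of its length in A549 and 0% in B2B, NQO1 over 95.8% and 2.26%, and AKR1C1 over 86.0% and 0%. SLC7A11 was covered over 57.5% and 1.14%, AKR1C2 over 54.4% and 0%, TXNRD1 over 53.0% and 2.63%, and GCLM over 43.8% and 0.705%. The lowest A549 values were 15.04% at AKR1C3 and 11.6% at GCLC, with 0% and 0.267% in B2B. The median of the members was 54.4% in A549 and 0.267% in B2B, while the medians of all genes were 1.41% and 0.163%. In A549 the 9 members stood between percentile 85.3 and percentile 100 of all genes. The pol II list of A549 held 1.82 times as many peaks as that of B2B, and in lists of equal length the median of the members was 52.6% against 0.267%. At the strongest B2B pol II promoter peak, the background was 17.3 times the baseline at NQO1, 7.62 times at TXNRD1 and 21.5 times at GCLM. It was 28.4 times at GCLC and at the baseline at SLC7A11. AKR1B10 and the AKR1C genes had no such peak and so no value. The part of the background in the covered shares was not tested.

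**Figure D3:**
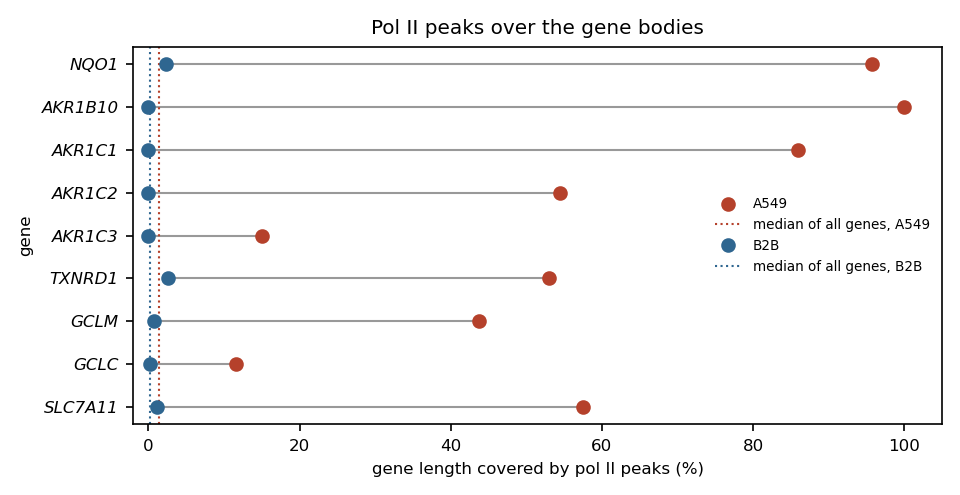
Share of the gene length covered by pol II peaks, in percent on the horizontal axis, for the 9 scored genes. Red points are A549, blue points are B2B, and dotted lines are the medians of all protein-coding genes. The red points lie between 11.6% and 100%, and the blue points at or below 2.63%.

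The surroundings of the members were then examined for AP-1 sites. Of the 129 Jun-family regions within 100 kb, 71 (55.0%, Wilson 95% interval 46.4 to 63.4%) were called in A549 alone, 31 (24.03%) in B2B alone and 27 (20.9%) in both. Of the 55710 Jun-family regions within 100 kb of any protein-coding gene, 34.8% were called in A549 alone, 38% in B2B alone and 27.2% in both. The interval covers counting error only, and neighbouring regions are not independent. Without AKR1B10 the share of A549 alone was 47 of 102 regions (46.1%), and without AKR1B10 and the AKR1C genes it was 36 of 85 (42.4%, 32.4 to 53.0%). By protein, 65 JunB, 80 Jun and 24 JunD peaks lay within 100 kb of a member in A549, and 8, 57 and 3 in B2B. As shares of each list these were 0.232%, 0.225% and 0.249% in A549 and 0.0934%, 0.127% and 0.0349% in B2B. All 3 proteins met in 18 of the 98 regions called in A549 (18.4%, against 16.5% for all genes) and in 3 of 58 in B2B (5.17%, against 9.48%). Beyond 3 kb of the members, the highest background at a Jun-family summit was 4.54 times the baseline in B2B and 3.82 times in A549, and the medians were 1.24 and 1.46 times.

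**Figure D4:**
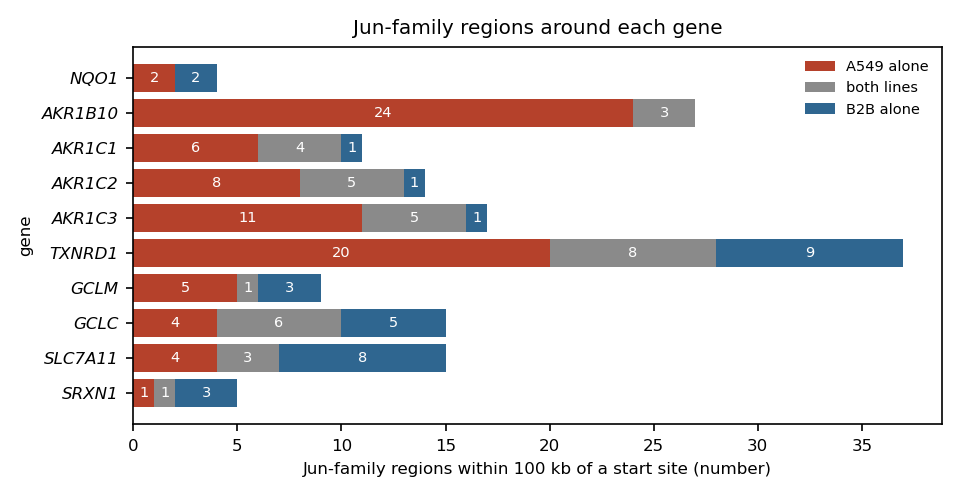
Number of Jun-family regions within 100 kb of a start site of each gene, on the horizontal axis, split into regions called in A549 alone (red), in both lines (grey) and in B2B alone (blue). AKR1B10 has 24 regions of A549 alone and none of B2B alone, while SLC7A11 has 4 and 8. Regions near several AKR1C genes are drawn at each of them.

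AKR1B10 had 27 regions, of which 24 were called in A549 alone, 3 in both lines and 0 in B2B alone. In the 3 shared regions the Jun fold enrichment was higher in B2B, at 17.5 against 10.7, 13.4 against 10.2 and 8.32 against 5.27 in A549. The first of these, chr7:134462330-134462774, had the highest summed fold enrichment in B2B. It lay between genes, 3.23 kb from a start site of AKR1B1 and 65.1 kb upstream of AKR1B10. The median gene had 3 regions of A549 alone and 2 of B2B alone, and the 90th percentile was 7 for A549 alone. Of the 24, 12 held a JunB peak and no other, with fold enrichments from 3.18 to 5.01, in the lower part of the list. In lists of equal length 15 regions were left, 12 of A549 alone and 3 shared. The median background at the A549 Jun-family peaks of this locus was 1.55 times the baseline. The strongest region, here and for the other members the one with the highest summed fold enrichment, was chr7:134515750-134516330, which lay between genes 11.5 kb upstream of AKR1B10, and the fold enrichments of JunB, Jun and JunD there were 19.5, 31.4 and 5.43 in A549, with no peak in B2B.

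The AKR1C cluster shared 1 strong region, chr10:4947600-4948105, between genes and 15.4 kb upstream of AKR1C1. JunB, Jun and JunD had fold enrichments of 27.2, 52.4 and 10.8 there in A549, the highest sum near any member, 90.4, and in B2B Jun alone was called, at 14.3. Of the 17 regions around the 3 genes, 11 were called in A549 alone, 5 in both lines and 1 in B2B alone. The pair of near-identical sequences given above lay in 2 of the regions called in A549 alone, with summed fold enrichments of 29.5 at AKR1C2 and 17.4 at AKR1C1. Of the 31-base words in the regions near AKR1C1, 44.5% occurred more than once in the genome, so that reads may have been placed on either copy.

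TXNRD1 had the most regions, 37, with 20 of A549 alone, 8 shared and 9 of B2B alone, and its start sites span 118 kb, so that more sequence was searched. The strongest lay in its first part, in an intron at chr12:104219216-104220596. The fold enrichments of JunB, Jun and JunD were 24.2, 55.1 and 10.6 in A549 and 6.80, 22.4 and 4.76 in B2B, so that all 3 proteins were called in both lines and each was higher in A549.

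**Figure D5:**
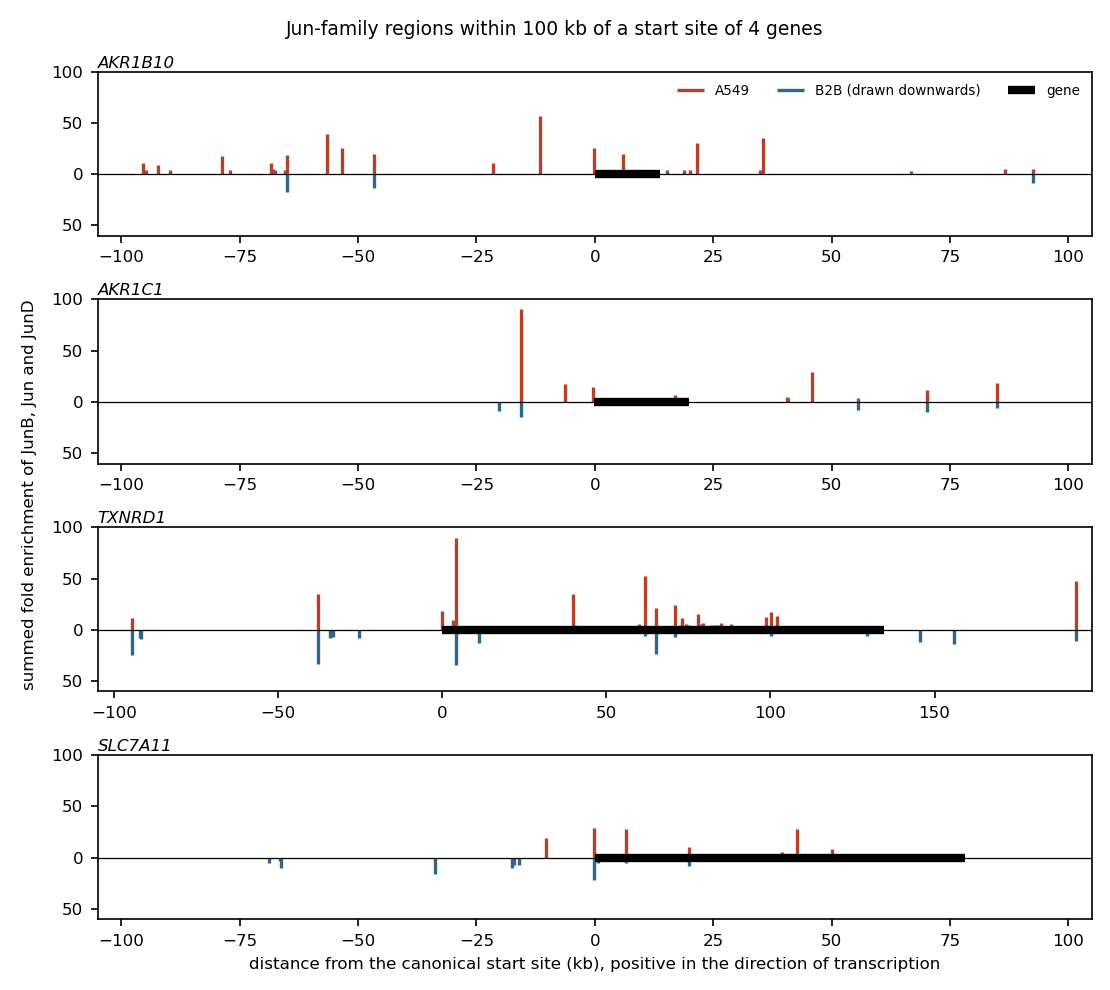
Jun-family regions around AKR1B10, AKR1C1, TXNRD1 and SLC7A11, by distance from the canonical start site in kb on the horizontal axis, positive in the direction of transcription. The height is the summed fold enrichment of JunB, Jun and JunD, upwards for A549 and downwards for B2B, and the black bar is the gene. The tallest bar is 90.4 at AKR1C1 and 89.9 at TXNRD1, and around AKR1B10 bars point downwards at 3 positions.

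The glutathione genes had a more even split. GCLC had 15 regions, 4 of A549 alone, 6 shared and 5 of B2B alone. Its strongest region in both lines, chr6:53673161-53673677, lay between genes, 56.4 kb upstream of a GCLC start and closer to KLHL31. There the fold enrichments of JunB, Jun and JunD were 13.8, 29.6 and 8.77 in A549 and 8.15, 40.2 and 7.12 in B2B, so that Jun was higher in B2B. GCLM had its strongest A549 region at its own promoter, chr1:93909316-93909758, with 18.1, 21.9 and 7.52 for the 3 proteins, and its strongest B2B region 51.6 kb upstream, closer to ABCA4, with 18.2 for Jun alone and 44 reads, while the most B2B reads, 94, lay at another Jun peak, of fold enrichment 15.1. SLC7A11 had 15 regions, of which 8 were called in B2B alone and 4 in A549 alone, the reverse of the AKR1 genes. Its strongest region in both lines was the promoter, chr4:138242222-138242746, with a summed fold enrichment of 28.6 in A549 and 21.99 in B2B. SRXN1 had 5 regions, and the strongest in A549 was again the promoter, chr20:653059-653811, with a sum of 70.3, while the highest fold enrichment in B2B lay 36.5 kb downstream of the start, closer to TCF15, with 14.5 for Jun. That peak had 32 reads, and the promoter, at a fold enrichment of 2.78, had the most B2B reads, 110. NQO1 had 4 regions, the strongest in A549 in an intron of WWP2 86.2 kb upstream, with 16.02 for Jun, and the strongest in B2B in an exon of NFAT5 99.2 kb downstream, with 8.49 for JunB and 24 reads, where another B2B peak, of Jun, had 26. The WWP2 intron region held TGACTCAGC, 37 bp from its Jun summit. Both regions lie closer to the start of another gene than to that of NQO1.

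The regions of A549 often overlapped marks of active chromatin in that line. Near members, 60 of 94 regions overlapped a Med1 peak (63.8%, against 32.5% for all genes), 74 of 96 a pol II peak (77.1%, against 48.4%) and 42 of 94 an H3K27ac peak (44.7%, against 35.5%). The same overlaps in B2B were 7 of 52 for Med1 (13.5%, against 14.95%), 7 of 54 for pol II (13.0%, against 19.97%) and 5 of 52 for H3K27ac (9.62%, against 14.6%). The wide pol II peaks over the members in A549 cover many regions inside the genes.

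The motifs at the summits were searched as letters, TGACTCA or TGAGTCA for AP-1 and TGACNNNGC for the ARE core, on both strands within 50 bp. An ARE core may overlap an AP-1 motif, and both were then counted. Of the 169 Jun-family peaks within 100 kb of members in A549, 30 held an ARE core (17.8%, Wilson 95% interval 12.7 to 24.2%), against 9.69% of all peaks of the 3 lists. The AP-1 motif was found at 55 (32.5%, 25.9 to 39.9%), against 42.6%. In B2B, 7 of 68 peaks held an ARE core (10.3%, 5.08 to 19.8%, against 7.75%) and 23 the AP-1 motif (33.8%, against 42.2%). Peaks of different proteins at 1 site share their sequence, so that these peaks are not independent. By region, the core was found in 12 of 71 regions of A549 alone, 8 of 27 shared ones and 1 of 31 of B2B alone. A region was searched at the summit of each list called in it. Shared regions were therefore searched at more summits than those of B2B alone, and these counts were not adjusted for it. Neither motif was found in 78 of the 129. In the RefSeq promoters of GRCh38.p14, 250 bases before to 50 after the start, 13.3% of 35116 held an ARE core and 4.95% an AP-1 motif. Of the members, 8 had an entry. GCLM held 1 core and the 2 TXNRD1 promoters held 2 and 1, and none held the AP-1 motif.

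Other genes of the pathway were taken as a list of 38. A JunB peak within 3 kb was found at 29 of them in A549 and 6 in B2B, a Jun peak at 33 and 19, and a JunD peak at 23 and 3. H3K4me3 was called at 37 in A549 and 35 in B2B. The shares of all genes in A549 and B2B were 31.1% and 5.28% for JunB and 38.2% and 25.4% for Jun. They were 17.8% and 3.21% for JunD and 73.7% and 62.7% for H3K4me3. A peak in A549 and none in B2B was found at 23 for JunB, 15 for Jun and 21 for JunD, beside the 26.7%, 19.3% and 16.2% of all genes given above. In JunB lists of equal length the count was 13, beside 6.37% of all genes. The local background in B2B was not worked out at these genes, so that the limit on missing B2B peaks given above holds for them too. All 3 proteins in A549 and none in B2B were found at 7 of 38 genes, where 5.79% of all genes had this pattern, and the reverse at 0, where 0.155% had it. In lists of equal length the pattern was left at 4, beside 1.41% of all genes. The 7 were KEAP1, the glutathione reductase gene GSR, MGST1, which encodes a microsomal glutathione transferase, PGD and ME1, whose enzymes supply NADPH, UGDH, which makes the substrate for glucuronidation, and PIR. At KEAP1, A549 had 40 JunB, 55 Jun and 28 JunD reads. MGST1 had the most Jun reads of the 7 in A549, 82.

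NFE2L2 itself carried AP-1 in both lines, with 61 Jun reads in A549 and 58 in B2B, 39 and 16 JunB reads, and 35 JunD reads in A549 alone. MAFG, which encodes a partner of NRF2, had no pol II or H3K4me3 peak in A549 and had both in B2B. Its Jun reads were 48 in A549 and 102 in B2B, while the Jun fold enrichments went the other way, 24.6 and 3.33. The reads include the local background, which was not worked out at MAFG, so they do not show more Jun binding in B2B. JunD was called at MAFG in A549 alone, with 18 reads. HMOX1, the haem oxygenase gene, had 27 JunB and 21 Jun reads in A549 and no Jun-family peak in B2B. By role, JunB was called in A549 and not in B2B at 4 of 4 iron and haem genes, 5 of 6 glutathione and thioredoxin genes, 4 of 6 genes of NADPH supply, 5 of 9 of detoxification and export, 3 of 9 regulators and 2 of 4 other targets. Of all genes, 26.7% had this pattern. These groups are small, and the roles were not counted in lists of equal length.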

How the data were processed

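ChIP-seq peaks of 9 targets in B2B and 7 in A549 were taken from the deposited lists, 1 per line and target. The authors aligned reads to hg38 with Bowtie2 2.4.4, removed duplicates with their own code, merged the 2 replicates, used SAMtools 1.13 to scale by CPM, and then ran MACS2 2.2.7.1 to call peaks. The MACS2 options and control are not given in the sources used here. Each deposited list gives a score (10 times the −log10 q-value, rounded down), a fold enrichment (the ratio of summit pileup to local background), −log10 p-value and −log10 q-value, with q-values at or below 0.01. CTCF and Rad21 were analysed in B2B alone.

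Summit reads and local background were solved from fold enrichment and −log10 p under the Poisson model of the caller, to a tolerance of 0.1%, for 100% of the 475211 peaks. They are reads after the authors' processing, and total depth per library is unknown. Start sites were those of GENCODE release 44. Peaks within 3 kb of any start site counted as promoter peaks. Overlap meant at least 1 bp, and overlapping Jun-family peaks were merged into regions. A region was counted for a member when a Jun-family peak of it lay within 100 kb of a start site. Shares were computed over all protein-coding genes that lay before the end of both lists. Wilson intervals cover counting error only. Replicates were pooled, so no test was made. Sequences were read from the hg38 reference, and promoter sequences from RefSeq. The genes described, the pathway list and the markers were chosen with earlier results of these data known. By rule, the text names every member, the Jun-family region of each with the highest summed fold enrichment in each line, pathway genes with all 3 Jun-family proteins in 1 line and none in the other, and NFE2L2, KEAP1, MAFG and HMOX1. Sequences were printed for at most 10 regions with an ARE core, by summed fold enrichment. Computations used Python 3.11.15, pandas 2.3.3, SciPy 1.17.1 and pysam 0.24.0, and the steps were tested on simulated data.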

Additional observations from a re-analysis of the deposited data

How the results depend on the processing

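Over 34 results and 144 alternative settings, 130 values stayed within the stated limits (1.5 times for counts) and 14 moved. Whether a result reversed was not scored. In lists of equal length, JunB was called at 5 members in A549 (9.38% of all genes) and at 5 in A549 and not B2B (6.37%). In the same lists 13 pathway genes had JunB in A549 and not B2B (6.37%), and 4 had all 3 Jun-family proteins in A549 and none in B2B (1.41%). At a −log10 q of at least 5 the last count was also 4 (4.35%), and among members, a setting chosen after seeing the data, it was 1 in place of 3. With start sites widened to 10 kb, B2B had JunB at 2 members (11.2% of all genes) and JunD at 1 (7.58%). With canonical starts, B2B had Jun at 2 members (13.7%), and 8 had Jun in A549 and not B2B (20.4%). Within 200 kb, 46% of regions were called in A549 alone (34.2% for all genes). With 50% reciprocal overlap, 13.87% of regions were shared. With 100 bp on each side of a summit, the A549 AP-1 motif share was 40.24% (47.6% of all peaks) and the ARE core share was 25.44% (14.5%). Their causes were not tested, except that equal lengths hold fewer peaks and wider windows hold more sequence. No paired analysis was possible because the replicates were merged before peaks were called, and leaving out 1 replicate was not run for the same reason. Missing B2B peaks at promoters with a high local background do not show that fewer reads were there.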
